A study of Homo sapiens with 20 samples.

Results

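The MYC and MAX network is a set of 9 genes here: MYC, MYCL, MAX, MXD1, MXD3, MXD4, MXI1, MNT and MGA. They were chosen by gene name from the 60271 genes of the deposited count tables, and all 9 passed the filter on low counts that left 16522 genes for testing. RNA was sequenced from MDA-MB-468 cells, an established epithelial line from a triple negative breast cancer, and the question was how these transcripts change while epidermal growth factor (EGF) induces an epithelial-to-mesenchymal transition. The 5 groups were an untreated control and cells kept in EGF at 50 ng/mL, for which the times were 12, 24, 48 and 72 h. Each group had 4 biological replicates, which made 20 libraries. Every group, the control included, was starved of serum for 24 h beforehand, and all wells were seeded and harvested together. A shorter time in EGF thus meant a longer time in culture before it was added. How much of that longer time was without serum is not given here. Its part in the results cannot be told apart from that of the time in EGF. The first time measured was 12 h, so the immediate early response lies outside these data, and all cells were of 1 line.

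MYC and MYCL are transcription factors of the basic helix-loop-helix leucine zipper family that bind DNA as heterodimers with MAX, mostly at the E-box, and raise transcription of genes for ribosome production, nucleotide synthesis and growth. MXD1, MXD3, MXD4, MXI1 and MNT dimerise with MAX in the same way but recruit SIN3 and histone deacetylases, and so oppose MYC at shared sites. MGA also pairs with MAX and works within a variant Polycomb complex, PRC1.6. MXD proteins are known for their rise in cells that leave the cell cycle and differentiate, and MYC is a classical growth factor response gene.

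The RefSeq table used here held promoter windows, on build GRCh38.p14, for 8 of the 9 genes (all but MYC). The 250 bases before the start are shown for the 2 repressor genes that moved most, MXD1 and MXD3, and for MNT and MXD4, whose windows hold the E-box. Each reads 5′ to 3′ on the strand of the gene, and capitals mark a match to CACGTG (the E-box, bound by MAX dimers) or to TGANTCA (the AP-1 motif, a usual end point of EGF signalling), searched on both strands. The MXD1 window is chr2:69914859-69915108 on the plus strand, MXD3 is chr5:177312753-177313002, MNT is chr17:2401061-2401310 and MXD4 is chr4:2262110-2262359, the last 3 on the minus strand.
MXD1: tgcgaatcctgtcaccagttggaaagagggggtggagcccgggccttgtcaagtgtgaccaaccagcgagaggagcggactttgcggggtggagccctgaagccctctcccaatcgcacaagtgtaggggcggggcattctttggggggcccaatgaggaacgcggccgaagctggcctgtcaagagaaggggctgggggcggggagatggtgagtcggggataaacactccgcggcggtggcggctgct
MXD3: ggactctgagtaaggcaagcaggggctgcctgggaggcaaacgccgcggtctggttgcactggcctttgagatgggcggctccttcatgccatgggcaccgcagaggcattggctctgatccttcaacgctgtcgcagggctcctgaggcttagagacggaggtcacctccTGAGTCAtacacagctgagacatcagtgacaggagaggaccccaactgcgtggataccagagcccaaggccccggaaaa
MNT: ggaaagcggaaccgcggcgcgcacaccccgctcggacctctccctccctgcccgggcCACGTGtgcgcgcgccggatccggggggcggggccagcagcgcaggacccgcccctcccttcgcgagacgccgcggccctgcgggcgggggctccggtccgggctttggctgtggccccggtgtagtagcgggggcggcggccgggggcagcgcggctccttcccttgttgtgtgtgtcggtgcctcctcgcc
MXD4: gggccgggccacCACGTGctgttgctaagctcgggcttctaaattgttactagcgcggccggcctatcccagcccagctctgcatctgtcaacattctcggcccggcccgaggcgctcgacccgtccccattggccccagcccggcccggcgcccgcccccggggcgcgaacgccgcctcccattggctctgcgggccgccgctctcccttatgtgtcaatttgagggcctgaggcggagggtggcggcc
The E-box occurred once each in the MNT and MXD4 windows and in none of the other 6, against 6.49% of all 27305 windows of this length. TGANTCA occurred once, in MXD3, starting 79 bases before the gene start, against 6.6% of windows. The E2F-type motif TTCCCGC was in none of the 8 and in 5.59% of all windows, and no matches overlapped. A match is a description of these letters and not a binding site. The windows follow the RefSeq start, and the MXD1 gene of GENCODE 29 begins further upstream, at position 69897688. MAX and MYCL, on the minus strand, also begin further upstream there, at 65102695 and 39902256. The windows of MXD1, MAX (chr14:65102284-65102533) and MYCL (chr1:39901918-39902167) thus lie inside the GENCODE genes. For these genes the lack of a match says nothing of the bases before the GENCODE start.

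Library totals ran from 15611961 to 25856953 estimated counts, and mitochondrial genes took 7.69 to 16.9% of them, with a group mean of 9.41% at 12 h, 10.9% in control and 15.0% at 72 h. Levels below are CPM, each gene's counts as a share of the library scaled to a fixed total, after TMM scaling, a measure relative to the rest of each library, so that fewer cells with a transcript and less RNA per cell cannot be told apart. Fold changes and standard errors (SE) come from edgeR's quasi-likelihood test across all genes, with p-values adjusted by Benjamini-Hochberg and a threshold of 0.05. The 4 comparisons with control share the same 4 control libraries. Epithelial markers fitted the label, with EPCAM between 138 and 225 CPM and EGFR, the receptor this line is known to overexpress, at 3474 ± 103 CPM in control (SD, n = 4). PGR had no count in any library, and ESR1 and ERBB2 stayed at or below 6.53 and 24.6 CPM. Of 12 markers of blood, endothelium, fibroblasts and liver, 9 had at most 8 counts in any library and 3 passed the filter (CD14, PECAM1 and COL1A1). The summed level of all 12 was 10.4 to 13.3 CPM in control and 19.7 to 24.6 CPM at 48 h. COL1A1, a fibroblast collagen, was higher at 12 h (log2 fold change 0.65, adjusted p = 0.000202) and PECAM1, an endothelial adhesion molecule, was lower (-2.59, adjusted p = 2.47e-08). The part of these markers in the results was not tested. Of the 8 identity markers tested, 6 were higher and 2 lower at 12 h, where 32.9% of all genes tested were higher and 36.5% lower. They ran from KRT18, a luminal keratin (2.70, adjusted p = 6.36e-18), to the receptor gene ERBB2 (-1.28, adjusted p = 9.88e-08).

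Within a library, levels can be compared between genes only per length, here CPM per kilobase (kb) of merged exons. In control, MYC led at 40.8 ± 3.03 CPM per kb (SD, n = 4). MXD1 followed at 7.99 ± 0.540, MAX at 7.47 ± 0.470 and MXI1 at 5.39 ± 0.288 CPM per kb, and MXD1 and MAX did not differ beyond their spread. MGA (2.37 ± 0.190) and MNT (1.68 ± 0.113) came next on the same scale. The order of genes this close depends on the length used. Merged exons hold 17651 bases for MGA and 8728 for MNT, but their longest transcripts hold 14439 and 4996. The least abundant were MXD4 (0.845 ± 0.109), MXD3 (0.721 ± 0.182) and MYCL (0.138 ± 0.0932 CPM per kb), and MXD4 and MXD3 overlapped. After 72 h of EGF, MYC was still first at 59.2 ± 4.37 CPM per kb, but MXD1 stood at 37.1 ± 3.98, well clear of MXI1 (6.83 ± 0.282) and MAX (6.69 ± 0.154).

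**Figure D1:**
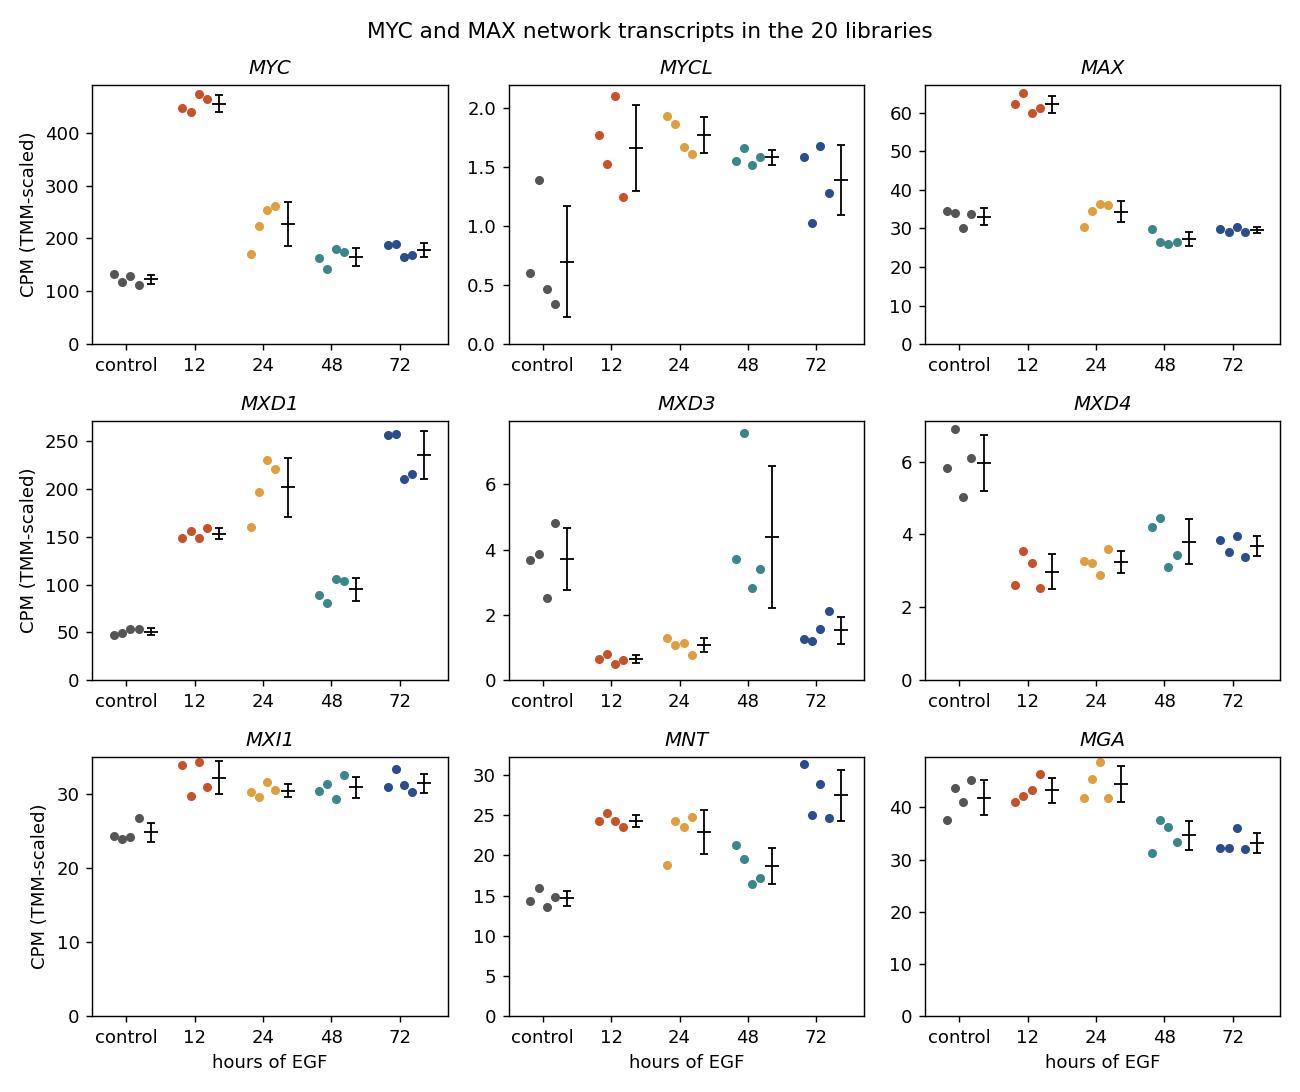
CPM of the 9 network genes (vertical axis, from 0) in each of the 20 libraries by group (horizontal axis, control or hours of EGF). Points are libraries and the black bar beside them is the mean ± SD of 4. MYC and MAX peak at 12 h, MXD1 is high at 12, 24 and 72 h with a dip at 48 h, and MXD3 is low at 12, 24 and 72 h.

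MYC, the main activator of the network, was higher than control at every time, most at 12 h. Its control libraries measured 132, 117, 128 and 113 CPM. With 12 h of EGF they measured 447, 438, 472 and 463 CPM, all well above control. This was a 3.72-fold rise (log2 fold change 1.89, SE 0.10, adjusted p = 8.66e-14 by edgeR), and only 4.24% of all genes tested had a larger one. By 24 h the libraries were spread over 170, 223, 254 and 262 CPM, still all above control (log2 fold change 0.89, SE 0.10, adjusted p = 6.26e-08). Levels of 163, 142, 179 and 175 CPM at 48 h, and of 188, 190, 165 and 168 CPM at 72 h, were nearer to control without overlapping it. The log2 fold changes were then 0.43 (SE 0.10, adjusted p = 0.00120 by edgeR) and 0.54 (SE 0.10, adjusted p = 6.64e-05). MYC thus fell between 12 and 24 h (log2 fold change -1.003, adjusted p = 2.02e-08) and again by 48 h (-0.46, adjusted p = 0.000520), although the 24 and 48 h libraries overlapped, and did not pass the test between 48 and 72 h (0.11, adjusted p = 0.430).

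MYCL, a MYC paralogue first found amplified in lung cancer, was at the edge of detection. Control libraries had 12, 33, 11 and 7 counts, or 0.603, 1.39, 0.470 and 0.336 CPM. All EGF libraries lay between 1.02 and 2.10 CPM, so that control replicate 2 alone overlapped them at 12 and 72 h. The log2 fold changes were 1.22, 1.31, 1.15 and 0.97 at 12, 24, 48 and 72 h (SE 0.29 to 0.30), with adjusted p-values from 0.000469 to 0.00666 by edgeR. Without control replicate 2 they were 1.81, 1.90, 1.74 and 1.57. No successive pair of times passed the test for MYCL.

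MAX, the dimer partner that the other proteins of the network share, was higher than control at 12 h and at no later time. Its control libraries gave 34.6, 34.0, 30.0 and 33.8 CPM, and those at 12 h gave 62.4, 65.2, 59.9 and 61.2 CPM, with no overlap. This rise of 1.88-fold had a log2 value of 0.91 (SE 0.07, adjusted p = 3.95e-11 by edgeR). By 24 h MAX overlapped control, with 2 of its 4 libraries above all control libraries, at 30.4, 34.4, 36.4 and 36.2 CPM (log2 fold change 0.05, SE 0.07, adjusted p = 0.538), a log2 change of -0.86 from 12 h (adjusted p = 8.46e-10). The 48 h libraries, at 30.0, 26.6, 26.1 and 26.4 CPM, lay at or just under the lowest control library (log2 fold change -0.28, SE 0.07, adjusted p = 0.00218). The fall from 24 to 48 h (-0.33) lost its call with library size as the only scaling (-0.18, adjusted p = 0.0524). With 29.9, 29.01, 30.4 and 29.1 CPM at 72 h, the difference of -0.16 missed the threshold (adjusted p = 0.0554), but it passed without control replicate 3 (-0.20, adjusted p = 0.0176) and with library size as the only scaling (-0.24, adjusted p = 0.00872).

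MXD1 (also MAD1), the founding MXD repressor, had the highest level and the largest rise among the repressor genes. Control libraries measured 46.8, 49.0, 53.8 and 53.5 CPM. They were followed at 12 h by 149, 156, 149 and 160 CPM, and at 24 h by 160, 197, 230 and 221 CPM. At 48 h MXD1 had dropped to 89.5, 80.7, 106 and 104 CPM, and at 72 h it reached 256, 258, 211 and 216 CPM. Each of the 16 EGF libraries was above each control library. The log2 fold changes against control were 1.596, 1.991, 0.904 and 2.213 (SE 0.10), with a highest adjusted p of 1.28e-07 by edgeR. At 72 h this was 4.64-fold, and 5.36% of all genes had a larger rise. The course had a trough, since each step between times passed the test: 0.40 from 12 to 24 h (adjusted p = 0.00187), -1.09 from 24 to 48 h (adjusted p = 6.88e-09) and 1.31 from 48 to 72 h (adjusted p = 6.91e-10). The 48 h libraries were below all others that received EGF. SNRNP27 shares 3.73% of MXD1's exon bases on the same strand.

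MXD3, a repressor that is known from cycling progenitors as well as from differentiating cells, moved the other way. Its control libraries held 73, 92, 59 and 100 counts (3.67, 3.87, 2.52 and 4.81 CPM), and those at 12 h 13, 15, 9 and 13 counts (0.657, 0.817, 0.497 and 0.622 CPM). All 12 h values were below all control values (log2 fold change -2.51, SE 0.31, adjusted p = 1.37e-07 by edgeR), and 2.91% of genes had a larger fall. MXD3 stayed low at 24 h with 1.29, 1.07, 1.15 and 0.781 CPM (log2 fold change -1.79, SE 0.29, adjusted p = 1.15e-05). At 48 h the libraries gave 3.71, 7.58, 2.81 and 3.40 CPM, within or above the control range, and the difference from control did not pass (log2 fold change 0.23, SE 0.25, adjusted p = 0.470). EGF 48 h replicate 2 was the high value, and without it the difference was -0.17. The 72 h libraries were low again at 1.27, 1.19, 1.56 and 2.11 CPM (log2 fold change -1.29, SE 0.28, adjusted p = 0.000296). From 24 to 48 h MXD3 rose by 2.02 (adjusted p = 3.74e-06), and from 48 to 72 h it changed by -1.52 (adjusted p = 0.000129). Without EGF 48 h replicate 2 these were 1.61 and -1.12, and both passed the test. MXD3 shares 18% of its exon bases with RAB24 on the same strand and 22.5% with PRELID1 on the opposite strand, so its counts may hold reads of these neighbours.

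MXD4, another MXD repressor, was lower than control throughout. Control libraries measured 5.83, 6.90, 5.04 and 6.10 CPM, and the 16 EGF libraries ranged from 2.53 to 4.45 CPM, all below. The log2 fold changes were -1.01, -0.87, -0.66 and -0.69 at 12, 24, 48 and 72 h (SE 0.14), with a highest adjusted p of 0.000445 by edgeR. No step between successive times passed for MXD4. MXI1 (also MXD2), a repressor induced by hypoxia in several cell types, was modestly higher at each time. Its control libraries lay at 24.3, 24.0, 24.2 and 26.8 CPM and the EGF libraries between 29.3 and 34.4 CPM, with no overlap and with log2 fold changes of 0.38, 0.30, 0.32 and 0.34 (SE 0.07, highest adjusted p = 0.000569 by edgeR). With library size as the only scaling, MXI1 no longer passed at 12 h (0.09, adjusted p = 0.225) or at 24 h (0.15, adjusted p = 0.0511).

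MNT, the repressor found with MAX in most cell types, was higher than control at each time and, like MXD1, had its lowest EGF level at 48 h. Control values were 14.3, 15.9, 13.5 and 14.8 CPM. MNT reached 24.2, 25.3, 24.2 and 23.5 CPM at 12 h and 18.8, 24.3, 23.5 and 24.7 CPM at 24 h, all above control. It then measured 21.3, 19.5, 16.4 and 17.2 CPM at 48 h and 31.3, 25.0, 28.8 and 24.7 CPM at 72 h. The log2 fold changes were 0.73, 0.64, 0.34 and 0.91 (SE 0.10), with a highest adjusted p of 0.00758 by edgeR, at 48 h. The step from 48 to 72 h passed (0.57, adjusted p = 8.58e-05), and the fall from 24 to 48 h (-0.30, adjusted p = 0.0156) was lost without EGF 24 h replicate 4 (adjusted p = 0.0575) or EGF 48 h replicate 3 (adjusted p = 0.0597). It was also lost with library size as the only scaling (-0.14, adjusted p = 0.246), with upper quartile factors (-0.23, adjusted p = 0.0709) and on the deposited normalised values (-0.30, adjusted p = 0.106). Of MNT's exon bases, 12.2% lie opposite the antisense gene AC006435.1.

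MGA, which carries a T-box DNA-binding domain beside its MAX-binding region, showed no rise that passed. Control libraries measured 37.6, 43.7, 41.0 and 45.3 CPM, and they overlapped those at 12 h (41.0, 42.3, 43.2 and 46.5 CPM) and at 24 h (41.8, 45.5, 48.8 and 41.8 CPM). The log2 fold changes were 0.05 (adjusted p = 0.608 by edgeR) and 0.08 (adjusted p = 0.354). At 12 h the sign turned with library size as the only scaling, where MGA was lower (-0.24, adjusted p = 0.00979). MGA was lower than control at 48 h, with 31.4, 37.6, 36.2 and 33.4 CPM (log2 fold change -0.27, SE 0.08, adjusted p = 0.00520), and at 72 h, with 32.1, 32.3, 36.1 and 32.1 CPM (-0.34, SE 0.08, adjusted p = 0.000564). The highest library at 48 h was just under the lowest control library. On the normalised values deposited by the authors, MGA did not pass at 48 h (0.03, adjusted p = 0.950) or 72 h (-0.33, adjusted p = 0.406). Their scaling factor varied over the libraries with an SD of 0.43 on the log2 scale for MGA, and 4.37% of 11956 genes varied more.

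**Figure D2:**
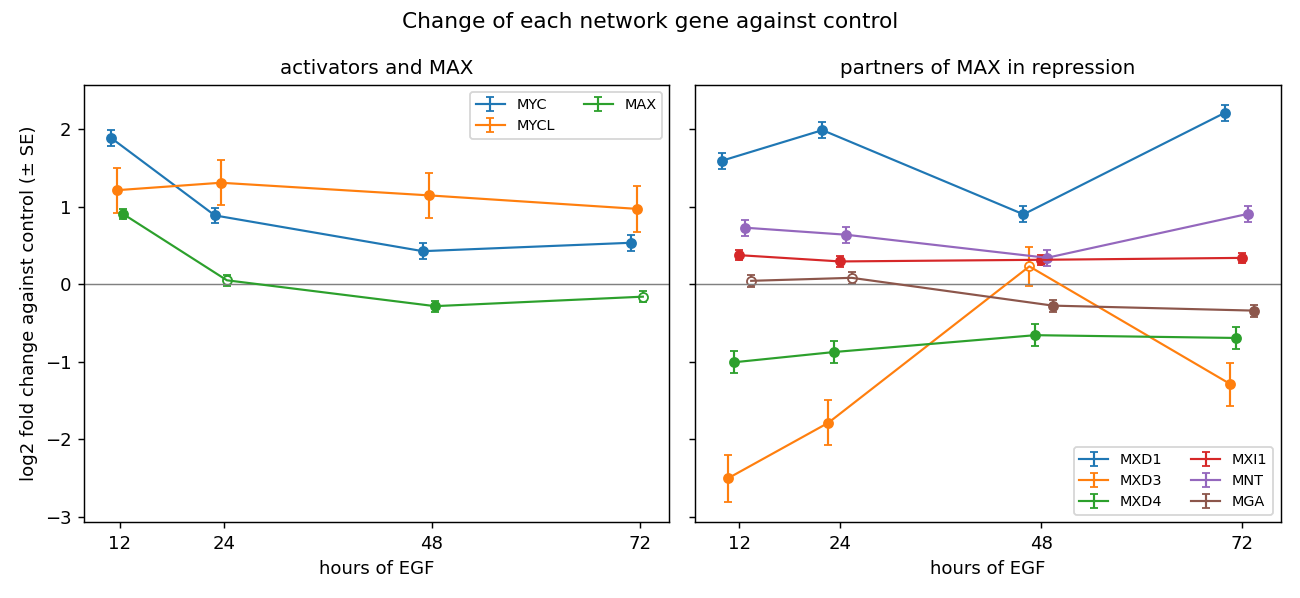
Log2 fold change against control (vertical axis) with its SE for each network gene at each EGF time in hours (horizontal axis, with points set slightly apart). Filled points passed an adjusted p of 0.05 and open points did not. MYC declines from 1.89 at 12 h, and MXD1 and MXD3 turn in opposite directions around 48 h.

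Counted together, 6 of the 9 genes were higher than control at 12 h, 2 were lower and MGA did not pass, where 32.9% of all genes tested were called higher and 36.5% lower. At 24 h 5 were higher and 2 lower, with MAX and MGA not passing, against 29.2% and 29.6% of all genes. At 48 h 5 were higher, 3 lower and MXD3 did not pass, against 24.0% and 21.8%. At 72 h 5 were higher, 3 lower and MAX did not pass, against 30.6% and 31.0%. Between 12 and 24 h MXD1 rose and MYC and MAX fell, where 27.9% of genes rose and 25.9% fell, and MXD3 rose as well with library size alone (0.86, adjusted p = 0.0402). From 24 to 48 h MXD3 rose and MYC, MAX, MXD1, MNT and MGA fell, against 25.9% and 24.3% of genes. With library size as the only scaling, 3 genes rose and 3 fell at this step, since MAX and MNT lost their calls and MXD4 (0.37, adjusted p = 0.0423) and MXI1 (0.18, adjusted p = 0.0315) gained one. Of all 16522 genes, 5948 rose and 2337 fell at this step with that scaling. From 48 to 72 h MXD1 and MNT rose and MXD3 fell, against 17.9% in each direction. The median log2 fold change of the 9 genes was 0.73, 0.30, 0.32 and 0.34 at the 4 times, and that of all genes was -0.05, -0.01, 0.01 and -0.01. Scaling by library size alone moved the median of all genes to -0.34 at 12 h and -0.15 at 24 h, and there 5 network genes were higher and 3 lower at 12 h, and 4 higher and 2 lower at 24 h. Of all 16522 genes, it called 3581 higher and 8275 lower at 12 h, and 3666 and 6421 at 24 h.

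The balance of MYC to its opponents was read as a ratio of CPM per kb within each library, where a scaling factor of the whole library cancels. MYC over the sum of the 6 repressor genes was 2.45, 2.06, 2.27 and 1.85 in control and 4.09, 3.95, 4.29 and 4.10 at 12 h. By 24 h the ratio was 1.53, 1.71, 1.72 and 1.85, no higher than the lowest control library, and at 48 h it was 2.07, 1.83, 2.13 and 2.06, overlapping control. At 72 h it was 1.17, 1.19, 1.19 and 1.22, the lowest of the 5 groups. MXD1 was the largest part of the repressor sum in control, with 42.1 ± 2.01% (SD, n = 4). Its share rose to 65.4 ± 1.42% by 12 h and 71.7 ± 2.57% by 24 h, was 54.9 ± 4.72% at 48 h, and reached 74.4 ± 1.99% by the last time. MYC over MXD1 went from 5.13 ± 0.623 in control to 6.28 ± 0.325 at 12 h and 1.602 ± 0.0549 at 72 h, and control replicate 1, at 5.97, overlapped the 12 h libraries, whose lowest was 5.94. MYC over MAX rose from 5.49 ± 0.627 in control to 10.8 ± 0.745 at 12 h and remained at 8.86 ± 0.753 at 72 h, with no EGF library under 7.90 and no control library over 6.31. These are ratios of transcripts, with lengths taken from merged exons, and say nothing of protein.

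**Figure D3:**
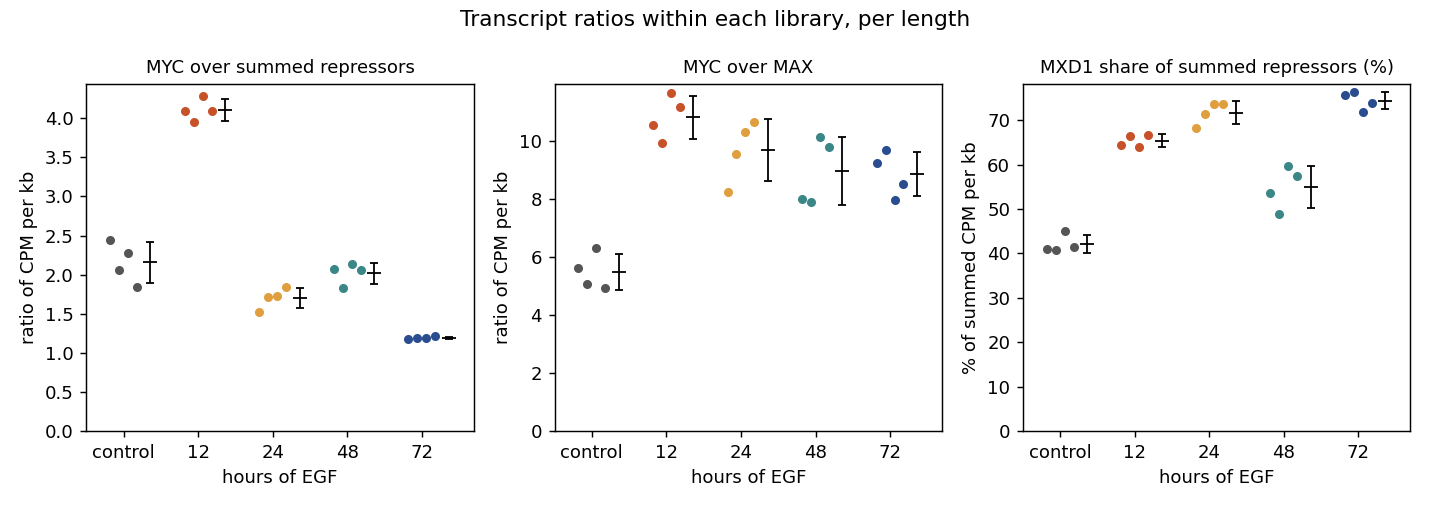
Transcript ratios in each library (vertical axes from 0, CPM per kb) by group (horizontal axes, control or hours of EGF). The panels show MYC over the 6 summed repressor genes, MYC over MAX, and MXD1 as a percentage of the summed repressors, with the mean ± SD of 4 beside the points. MYC over the repressors peaks at 12 h and is lowest at 72 h, while MYC over MAX stays above control throughout.

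Genes whose pattern was most like that of each network gene were found by the root mean square (RMS) difference between mean-centred log2 CPM over the 5 group means, among 9041 or 9042 genes of at least 10 CPM. The 5 nearest to MYC were NIBAN2 (0.0563), PDLIM7 (0.0571), FLNA (0.0580), CDH3 (0.0746) and SH3BP1 (0.0749). FLNA encodes the actin crosslinker filamin A and CDH3 encodes P-cadherin. For MAX the nearest was ABCF2 (0.0202), for MXD1 the phosphate transporter SLC20A1 (0.121), for MXI1 HOXC10 (0.0274), for MNT cyclin D3 (CCND3, 0.0304) and for MGA INHBB (0.0308). For the scarcer genes the nearest were STRIP2 for MYCL (0.123), ZNF84 for MXD4 (0.0627) and AC004870.2 for MXD3 (0.163). Within the network itself, MXI1 and MNT were most alike (0.214) and MXD1 and MXD3 least (1.68).

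Target genes that MYC is known to induce were mostly higher at 12 h, and fewer were at later times. Of the 38 tested of 40 listed, 34 were higher and 2 lower at 12 h, 18 and 3 at 24 h, 4 and 19 at 48 h, and 7 and 16 at 72 h. Of all genes tested, 32.9% were higher and 36.5% lower at 12 h, and 29.2% and 29.6% at 24 h. At 48 h these shares were 24.0% and 21.8%, and at 72 h 30.6% and 31.0%. The median log2 fold change of the list was 0.73, 0.21, -0.22 and -0.12. With library size as the only scaling, 28 were higher and 3 lower at 12 h, and 14 higher and 10 lower at 24 h. That scaling called 3581 of all 16522 genes higher and 8275 lower at 12 h, and 3666 and 6421 at 24 h. BOP1, a ribosome assembly factor, had the largest rise at 12 h, from 2.45 ± 0.497 CPM in control to 9.14 ± 0.923 CPM (log2 fold change 1.90, adjusted p = 3.35e-10 by edgeR). NCL, the nucleolar protein nucleolin, went from 217 ± 18.9 CPM to 387 ± 13.3 CPM at 12 h (0.84, adjusted p = 2.61e-10) and then to 137 ± 7.58 CPM at 72 h (-0.66, adjusted p = 2.33e-08). CAD, which starts pyrimidine synthesis, rose at 12 h (0.74) and 24 h (0.51) and did not pass later. CDK4, a cyclin-dependent kinase of the G1 phase, rose at 12 h alone (0.39, adjusted p = 0.000976). ODC1, the rate-limiting enzyme of polyamine synthesis, rose slightly at 12 h (0.21, adjusted p = 0.00894) and fell to 19.9 ± 1.92 CPM at 72 h from 53.3 ± 1.63 CPM in control (-1.43, adjusted p = 2.82e-14). Library size alone moved the median of all genes at 12 h from -0.05 to -0.34, so rises as small as those of ODC1 and CDK4 depend on the scaling. UBTF, a factor for ribosomal RNA transcription, fell at all 4 times, by 0.64 at 12 h and 0.92 at 72 h on the log2 scale.

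Target genes that MYC is known to repress were called in both directions. Of 14 tested of 15, 6 were higher and 7 lower at 12 h, where 32.9% of all genes were higher and 36.5% lower. At 72 h 7 were higher and 4 lower, against 30.6% and 31.0% of all genes. CDKN1A, the cell cycle inhibitor p21, rose from 67.0 ± 9.54 CPM in control to 593 ± 8.75 CPM at 12 h, when MYC was highest (log2 fold change 3.14, SE 0.12, adjusted p = 3.74e-16 by edgeR). It was still 471 ± 61.0 CPM at 72 h (2.81, adjusted p = 2.23e-15), after 178 ± 14.2 CPM at 48 h. CDKN1B, the related inhibitor p27, was lower at each time, with log2 fold changes of -0.33, -0.33, -0.63 and -0.53. NDRG2, a differentiation-associated gene, fell at 12 h (-2.12, adjusted p = 4.62e-08) and was near control at 72 h (-0.11, adjusted p = 0.658).

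Among relatives of the network, MYCN, the third MYC paralogue, was lower than control at every time, with 5.83 ± 1.14 CPM in control and 1.22 ± 0.315 CPM at 12 h (log2 fold change -2.26, SE 0.19, adjusted p = 1.52e-10 by edgeR). At 24, 48 and 72 h its log2 fold changes were -0.98, -1.93 and -1.89. TFAP4, a helix-loop-helix factor and MYC target, was higher at 12 h only (1.10, adjusted p = 7.50e-07). MLX, which takes the place of MAX in the parallel Mondo branch, rose from 59.0 ± 2.93 to 114 ± 2.97 CPM at 12 h (0.95, adjusted p = 2.67e-12), and its partner MLXIP (MondoA) from 22.7 ± 2.77 to 45.2 ± 1.74 CPM (0.99, adjusted p = 5.99e-10). Of all 7 extended network genes, 3 were higher and 2 lower at 12 and 24 h, 2 and 1 at 48 h, and 2 and 2 at 72 h. These counts and those of the Mondo targets below are to be read against the shares of all genes tested. The shares were 32.9% higher and 36.5% lower at 12 h, and 29.2% and 29.6% at 24 h. At 48 h they were 24.0% and 21.8%, and at 72 h 30.6% and 31.0%. A count near these shares is no result about a list. TXNIP, the usual readout of MondoA, had at most 1 count in any library and was not tested. Of the 7 tested of 10 Mondo targets, 3 were higher and 1 lower at 12 h, with PFKFB3, a driver of glycolysis, at a log2 fold change of 2.16 (adjusted p = 2.96e-15) and ARRDC3, an arrestin-like protein, at -1.65 (adjusted p = 1.75e-12). At 24 h 3 were higher and 3 lower, and at 48 and 72 h 4 were higher and 3 lower.

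Coregulators were called in both directions at 12 h. The shares of all genes tested, against which each count here and in the next lists is to be read, were 32.9% higher and 36.5% lower at 12 h, 29.2% and 29.6% at 24 h, 24.0% and 21.8% at 48 h, and 30.6% and 31.0% at 72 h, and a share near these is no result about a list. Of 18 MYC coactivators, 9 were higher and 2 lower at 12 h, 6 and 5 at 24 h, 2 and 5 at 48 h, and 4 and 9 at 72 h. KAT5, an acetyltransferase, fell at 12 h (log2 fold change -0.38, adjusted p = 2.98e-05 by edgeR). Of 16 corepressors of MXD and MNT, 5 were higher and 2 lower at 12 h, 4 and 1 at 24 h, 2 and 7 at 48 h, and 2 and 8 at 72 h. SAP30, a SIN3 subunit, changed by -1.16 at 12 h (adjusted p = 2.89e-07). Of 12 subunits of the MGA complex PRC1.6, 5 were higher and 3 lower at 12 h, 1 and 3 at 24 h, and 0 and 7 at both 48 and 72 h. MGA itself was lower at 48 and 72 h, but did not pass at either time on the deposited normalised values. WDR5 rose at 12 h (0.61) and TFDP2 fell (-0.93), and L3MBTL2, a defining subunit, did not pass at any time (lowest adjusted p = 0.106). With library size alone, 12 h gave 4 higher and 7 lower for the coactivators, 2 and 11 for the corepressors, and 1 and 5 for PRC1.6. These are to be read against the calls of that scaling, 3581 of all 16522 genes higher and 8275 lower.

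Of 22 genes that set the stability of MYC protein, 7 were higher and 6 lower at 12 h, 6 and 5 at 24 h, 1 and 5 at 48 h, and 3 and 8 at 72 h. As reported, 32.9% and 36.5% of all genes were called higher and lower at 12 h. With library size alone the turnover counts became 4 and 13 at 12 h and 2 and 8 at 24 h. That scaling also called more of all 16522 genes lower than higher. It gave 3581 higher and 8275 lower at 12 h, and 3666 and 6421 at 24 h. AXIN1, a scaffold for MYC phosphorylation, rose from 7.30 ± 0.578 to 17.3 ± 1.65 CPM at 12 h (log2 fold change 1.24, adjusted p = 1.23e-09 by edgeR). FBXO32, an F-box protein, was at -1.28 at 12 h (adjusted p = 1.43e-11) and at 0.56 at 72 h (adjusted p = 3.62e-06). Of 16 replication genes, 5 were higher and 5 lower at 12 h, 7 and 2 at 24 h, 1 and 8 at 48 h, and 3 and 7 at 72 h. Of all genes, 29.2% were higher and 29.6% lower at 24 h, and 24.0% and 21.8% at 48 h. With library size alone the replication counts were 2 and 9 at 12 h, 4 and 3 at 24 h, and 3 and 11 at 72 h. At 72 h that scaling called 4413 of all 16522 genes higher and 5817 lower. CDT1, which licenses origins, was higher at each time, with 0.68 at 12 h (adjusted p = 0.000124). CCNA2, cyclin A2, was lower at each time, from 80.7 ± 6.41 CPM in control to 43.9 ± 1.12 CPM at 12 h, 63.8 ± 6.69 CPM at 24 h and 30.7 ± 3.02 CPM at 72 h (-1.40, adjusted p = 8.42e-13).

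**Figure D4:**
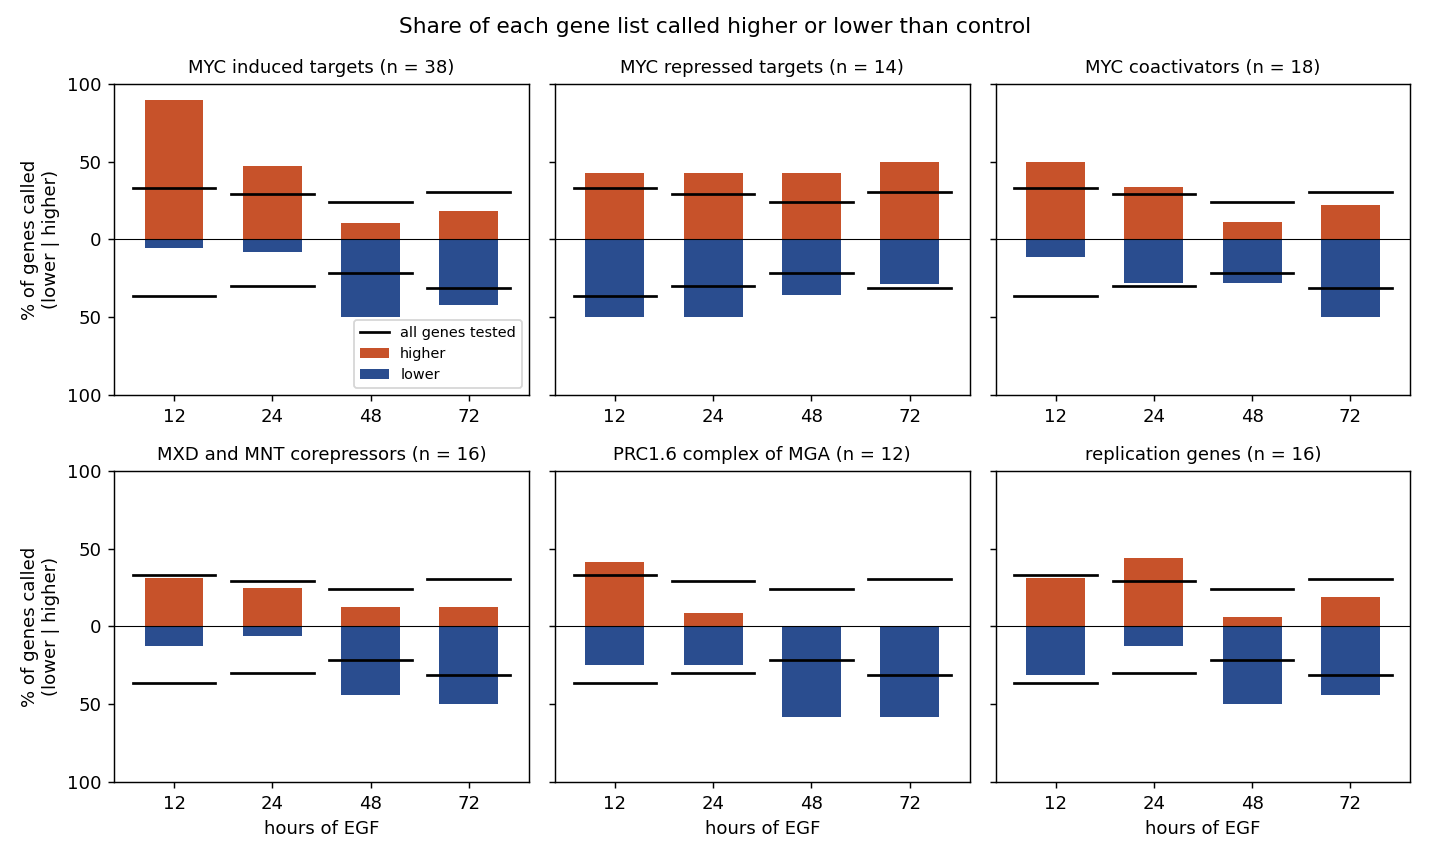
Share of the tested genes of 6 lists called higher (upward bars) or lower (downward bars) than control, in percent (vertical axis), at each EGF time in hours (horizontal axis). Black lines mark the share of all 16522 genes in the same direction. Of 38 MYC induced targets, 34 are higher at 12 h, and 19 are lower at 48 h.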

How the data were processed

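RNA of MDA-MB-468 cells was sequenced by the authors as 75 bp single-end reads of Lexogen Corall mRNA libraries. The authors deposited estimated counts per gene, rounded to whole numbers, and beside them normalised values (a score on the scale of counts, also rounded) made in DESeq2 with a factor that varies between genes. The submitters' processing notes name hg38 and DESeq2; the aligner and annotation are not given in the sources used here. The authors' fold changes and p-values were not used. The 20 libraries were grouped by their labels. Genes were kept by filterByExpr and fitted in 1 model with edgeR 4.0.16 (R 4.3.3) and TMM scaling, with a quasi-likelihood F test per contrast, prior count 0.125, and Benjamini-Hochberg adjustment over 16522 genes. The SE is the log2 fold change divided by the square root of F. CPM are TMM-scaled. Depth limits MYCL, MXD3 and MXD4 most.

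The network genes and lists were chosen with earlier results of these data known. Beside the 9 genes, the text names of each list the gene with the largest rise and the largest fall at 12 h among those called with a mean of at least 1 CPM, and ODC1, NCL, CAD, CDK4, CDKN1A, CDKN1B, TXNIP, MLX, MLXIP and L3MBTL2. EPCAM, EGFR, PGR, ESR1 and CD14 were named after their values were seen. Some genes that the rule names are counted in their lists but not reported here. Lengths and overlaps come from GENCODE 29 and promoters from RefSeq. Alternatives used library size, upper quartile or DESeq2-type (RLE) size factors, other filters, a prior count of 2, the Wald test of DESeq2 1.42.0, limma 3.58.1 on the log2 of the deposited normalised score plus 1, the replicate number as a block, the 8 libraries compared alone, and each library left out. Counts were also simulated from the control means with a fixed dispersion, with 200 genes among the 15730 tested changed in the 12 h group. There 174 changed and 10 unchanged genes were called. The real comparison at 12 h called 11465 of 16522 genes, so the simulation does not test the scaling under so broad a change. No 2 replicates of a group agreed within sampling noise (dispersion index 4.01 to 74.4 over 30 pairs).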

Additional observations from a re-analysis of the deposited data

Results flagged for a closer look

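Dixon's test at 4 samples (critical value 0.829) was applied to the CPM of the 9 genes in the 5 groups, 45 groups in all, of which chance flags about 1 in 20. It marked 4 libraries: MAX in control replicate 3 (30.0 CPM, nearest library 33.8), MAX in EGF 48 h replicate 1 (30.0 CPM, nearest 26.6), MXI1 in control replicate 4 (26.8 CPM, nearest 24.3) and MGA in EGF 72 h replicate 3 (36.1 CPM, nearest 32.3).

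The effect of EGF differed between successive times, by the edgeR test of the difference itself, in 12 of 27 cases. Of all 16522 genes tested, 8879 passed from 12 to 24 h, 8292 from 24 to 48 h and 5906 from 48 to 72 h. The count of 12 is near these shares and is no result about the network. From 12 to 24 h these were MYC (log2 fold change -1.003), MAX (-0.86) and MXD1 (0.40). From 24 to 48 h they were MYC (-0.46), MAX (-0.33), MXD1 (-1.09), MXD3 (2.02), MNT (-0.30) and MGA (-0.36). At this step MAX lost its call with library size alone (-0.18, adjusted p = 0.0524), MNT lost it there (-0.14, adjusted p = 0.246), with upper quartile factors (-0.23, adjusted p = 0.0709) and on the deposited normalised values (-0.30, adjusted p = 0.106), and MGA turned sign on the last (0.022, adjusted p = 0.965). From 48 to 72 h they were MXD1 (1.31), MXD3 (-1.52) and MNT (0.57).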

How the results depend on the processing

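The number of network genes called stayed within 1.5 times of the reported one in all 7 comparisons under every alternative run, and so did the total over the gene lists. Scaling moved all genes: calls at 12 h were 47.4% higher as reported, 30.2% with library size alone and 37.2% with upper quartile factors, and at 24 h against control 49.6% and 36.3% with library size alone. Between successive times library size alone gave 68.6%, 71.8% and 33.8% higher in place of 51.9%, 51.5% and 50.0%, and upper quartile factors gave 66.1% from 12 to 24 h. Small differences turned sign. With library size alone these were MAX at 24 h (-0.092), MGA at 12 h (-0.24) and 24 h (-0.058), MXI1 from 12 to 24 h (0.062) and from 48 to 72 h (-0.063), and MNT from 12 to 24 h (0.049). With upper quartile factors they were MGA at 12 h (-0.12), MXI1 (0.035 and -0.017 for the same steps) and MNT (0.024). On the deposited normalised values they were MAX at 24 h (-0.047), MXD4 from 12 to 24 h (-0.055) and 48 to 72 h (0.21), and MGA at 48 h (0.033), from 12 to 24 h (-0.31) and from 24 to 48 h (0.022). Leaving out 1 library gave ranges that crossed 0 for MYCL from 12 to 24 h (-0.025 to 0.22), MXD3 at 48 h (-0.17 to 0.40), MXD4 from 48 to 72 h (-0.13 to 0.050), MXI1 from 24 to 48 h (-0.0072 to 0.046) and 48 to 72 h (-0.0028 to 0.051), and MGA from 12 to 24 h (-0.0089 to 0.074). Of list counts, the extended network at 24 h went from 5 to 3 with library size alone or no filter, and to between 3 and 5 with 1 library left out. At 48 h that range was 1 to 3 for it and 3 to 7 for MYC turnover, and corepressors gave 13 at 12 h and 8 at 24 h with library size alone. The cause was not tested. MNT at 48 h lost its call on the normalised values (0.23, adjusted p = 0.219), where MAX at 72 h passed (-0.29, adjusted p = 0.0157), as it did with upper quartile factors (-0.18, adjusted p = 0.0346). With the longest transcript as length, MXD1's share of the repressors was 36.2% in control and 69.5% at 72 h.

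Same-numbered libraries of different groups did not deviate together in every pair (correlations -0.428 to 0.565, 11 of 40 over 0.1, and 6 of 20 libraries closest to their own number). A replicate block left all calls on the 9 genes as they were, with 8 called at 12 h.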
